A study of Arabidopsis thaliana with 7 samples.

Results

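The genes described here are the RNA-binding, splicing and RNA-processing genes of *Arabidopsis thaliana* whose surroundings held an open-chromatin peak in the *msh1* memory line when it was set against wild type. A gene was taken where it stood in at least 1 of 6 deposited gene lists and where its deposited description, read up to the first semicolon, held any of 10 terms: RNA-binding, RNA recognition, splicing, spliceosom, snRNP, ribonucleoprotein, RNA helicase, ribonuclease, exosome or polyadenyl. Descriptions with ribosomal protein, pentatricopeptide, zinc finger, dicer or RNA-dependent were to be left out, which removed 0 genes. Of the listed genes, 48 carry no description and could not be chosen. This gave 38 of the 2600 listed genes, and no value beyond presence in a list entered the choice. The terms are words of an annotation, and the label RNA processing holds only as far as those words do: a ribonuclease H-like fold, for example, is also found in proteins of transposons.

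The assay was FAIRE-seq, which reads out open chromatin: chromatin is crosslinked with formaldehyde and sheared, and the DNA that stays free of protein is recovered and sequenced. Whole rosettes of the Columbia-0 ecotype, grown for 14 days on MS medium at 24 °C with 12 h of light, gave 2 crosslinked wild type libraries (replicates 2 and 3) and 3 crosslinked libraries of the *msh1* memory line (replicates 1, 2 and 3, here memory plants 1, 2 and 3). Decrossed pools, 1 per genotype and each of 3 plants, were the authors' check of the treatment and are not analysed here. The line is named for *MSH1*, a nuclear gene that acts in the stability of organelle genomes, and the labels give it no transgene, generation or further allele. A whole rosette holds many cell types, and a gene list carries no level from which a cell type could be checked.

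Each list holds the genes with a peak inside the gene or in the 2 kb on either side, for 1 memory plant against 1 wild type library, which appears under the code C2 or C3. The labels do not tie these codes to the wild type replicates. An entry is presence or absence, with no height, position or p-value, and the depth behind it is unknown, so a gene missing from a list may have missed the authors' threshold by little. The 6 lists come from only 5 libraries, so the number of lists that hold a gene is a description and not a count of independent replicates, and with 1 library on each side of a list no test was possible. Of the 27444 nuclear protein-coding genes, the lists of memory plants 1, 2 and 3 against C2 held 5.86%, 4.72% and 4.42%, and those against C3 held 4.76%, 3.84% and 3.55%. At least 1 list held 9.47% of these genes and all 6 lists held 1.55%.

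RNA processing turns a primary transcript into a mature one and later removes it. The spliceosome, built from small nuclear ribonucleoproteins (snRNPs) with a ring of Sm proteins at their core, cuts out introns with the help of RNA helicases, and serine/arginine-rich (SR) proteins help to choose the splice sites. Transcripts are then cleaved and given a poly(A) tail, which poly(A)-binding proteins coat, and exoribonucleases and the exosome degrade RNA from its ends.

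Of the 38 genes, 6 were in all 6 lists. They were *PAB3* and *RBP47C'*, which encode polyadenylate-binding proteins, *XRN2*, a 5′-3′ exoribonuclease of the nucleus, AT5G38600, a proline-rich spliceosome-associated protein with a zinc knuckle, AT1G73490, a protein with an RNA recognition motif, and AT4G13885, of the ribonuclease H-like superfamily. The 250 bases before the annotated start of 5 of these genes are printed so that the sequence under the listed windows can be read. The bases before *RBP47C'* are not, since they overlap another protein-coding gene. The 250 bases before *RS40* and *RZ1C*, both listed for memory plant 1 alone, are shown beside them for comparison, and both were picked after their values were seen. The sequences are from the RefSeq assembly TAIR10.1, run 5′ to 3′ on the strand of the gene and end at the base before its start. They are the genes' own positions and not those of peaks. Capitals mark every match, on either strand, to 6 strings of letters that are named further on with their counts.
*PAB3*, chr1:8055075-8055324, plus strand: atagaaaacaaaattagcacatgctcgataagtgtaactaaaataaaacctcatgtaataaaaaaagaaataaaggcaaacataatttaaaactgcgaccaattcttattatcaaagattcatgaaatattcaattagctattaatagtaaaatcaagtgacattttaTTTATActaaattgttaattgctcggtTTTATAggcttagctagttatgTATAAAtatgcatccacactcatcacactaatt
AT1G73490, chr1:27634991-27635240, minus strand: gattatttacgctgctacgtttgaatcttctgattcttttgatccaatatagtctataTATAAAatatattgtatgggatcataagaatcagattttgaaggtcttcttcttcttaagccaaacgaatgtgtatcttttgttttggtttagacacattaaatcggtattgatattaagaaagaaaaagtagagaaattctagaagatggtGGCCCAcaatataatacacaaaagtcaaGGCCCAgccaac
AT4G13885, chr4:8030755-8031004, minus strand, overlapping the non-coding gene AT4G06145: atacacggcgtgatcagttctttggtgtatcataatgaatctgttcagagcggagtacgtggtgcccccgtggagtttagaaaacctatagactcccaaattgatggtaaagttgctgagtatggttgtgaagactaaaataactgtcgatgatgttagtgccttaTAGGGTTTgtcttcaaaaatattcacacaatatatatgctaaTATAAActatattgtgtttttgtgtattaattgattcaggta
AT5G38600, chr5:15456270-15456519, plus strand: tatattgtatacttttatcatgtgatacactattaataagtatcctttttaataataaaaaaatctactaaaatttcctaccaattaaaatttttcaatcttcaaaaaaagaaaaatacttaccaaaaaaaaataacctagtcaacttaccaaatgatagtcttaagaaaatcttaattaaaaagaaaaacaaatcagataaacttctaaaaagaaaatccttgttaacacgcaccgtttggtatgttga
*XRN2*, chr5:17007116-17007365, plus strand: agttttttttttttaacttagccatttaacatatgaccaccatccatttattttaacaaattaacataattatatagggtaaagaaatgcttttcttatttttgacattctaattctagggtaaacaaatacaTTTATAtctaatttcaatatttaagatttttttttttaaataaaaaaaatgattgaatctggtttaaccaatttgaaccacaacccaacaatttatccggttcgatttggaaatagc
*RS40*, chr4:13024248-13024497, plus strand: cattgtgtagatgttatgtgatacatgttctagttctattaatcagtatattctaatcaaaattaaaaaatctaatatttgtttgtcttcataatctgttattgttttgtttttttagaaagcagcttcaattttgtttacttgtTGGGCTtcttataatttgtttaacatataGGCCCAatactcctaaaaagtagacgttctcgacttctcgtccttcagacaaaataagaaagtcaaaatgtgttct
*RZ1C*, chr5:1192009-1192258, plus strand: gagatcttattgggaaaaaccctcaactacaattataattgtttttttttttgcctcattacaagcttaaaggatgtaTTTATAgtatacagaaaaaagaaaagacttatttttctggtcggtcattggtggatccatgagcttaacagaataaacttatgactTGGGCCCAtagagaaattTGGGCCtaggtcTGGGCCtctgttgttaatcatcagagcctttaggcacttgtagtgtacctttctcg

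TATAAA stood before 4 of the 6 genes in all 6 lists, and it stands before 47.3% of all genes. These 4 are among the 5 printed, and *RBP47C'* had no such string. Before *PAB3* the string TATAAA, or its complement, stood 3 times, with its first base 82, 55 and 33 bases before the start. Before *XRN2* it stood once, 117 bases before the start, and before AT4G13885 it stood 42 bases before the start, after a telo box at 84. AT1G73490 had TATAAA at 192 bases and the site II string TGGGCC, or its complement, at 40 and 12 bases, and AT5G38600 had 0 matches to any of the 6 strings. *RS40* had site II strings at 105 and 76 bases. *RZ1C* had 4 of them, at 86, 84, 68 and 56 bases, the first 2 being the strands of a single TGGGCCCA, and TATAAA at 172 bases. *CID8* and AT2G03640, which were in the same lists as *RS40* and *RZ1C* and are not printed, held no site II string.

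The lists were read first by role, with each gene placed in 1 role by the first of these that its description held, in this order: helicase, splicing or snRNP, polyadenylation, ribonuclease, ribonucleoprotein and RNA-binding.

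**Figure D1:**
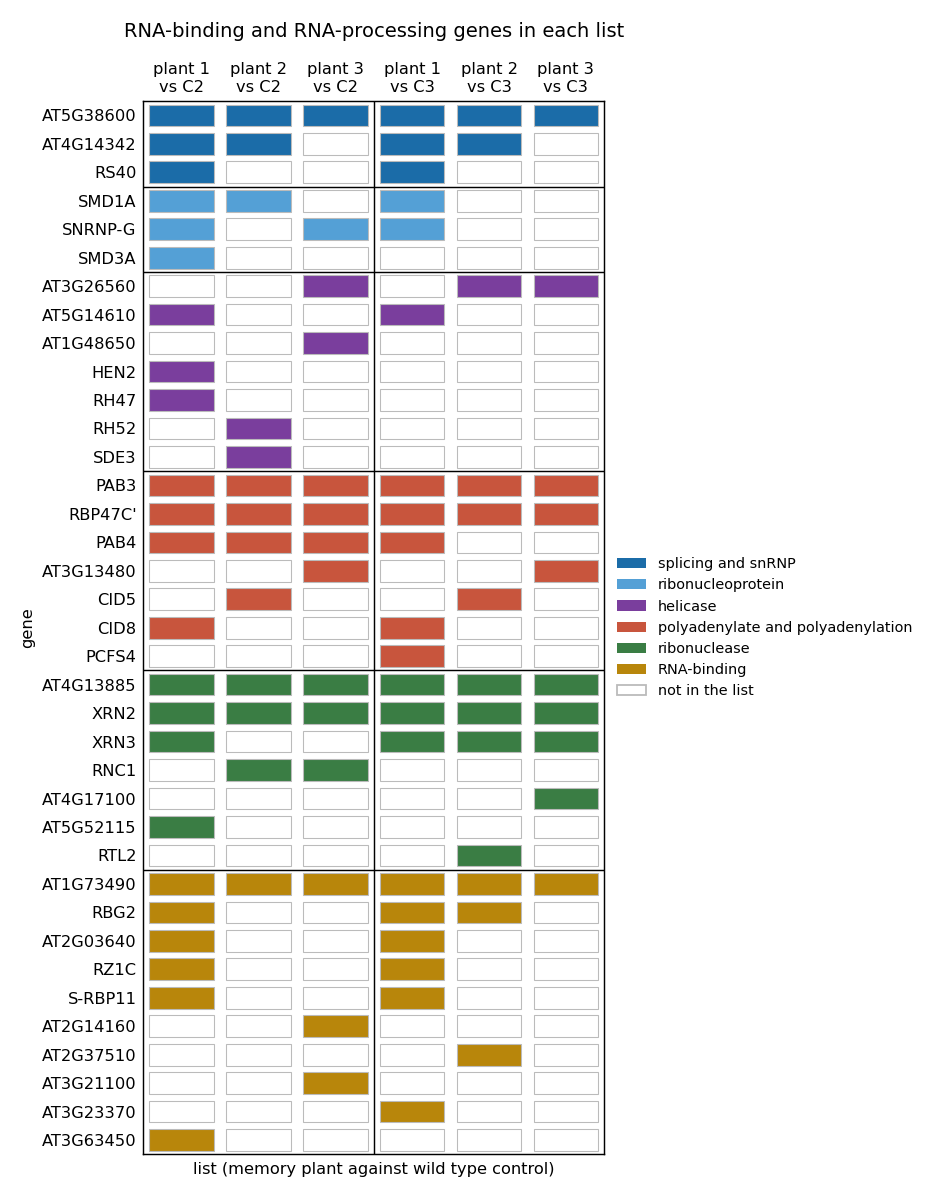
Presence of the RNA-processing genes (rows, 1 of the 38 not drawn) in each of the 6 lists (columns, memory plants 1 to 3 against C2 on the left and against C3 on the right), with a filled box where the list holds the gene, coloured by role. The 6 rows filled throughout belong to 4 of the 6 roles, and the helicases and ribonucleoproteins have no such row.

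The role of splicing or snRNP, which leaves out the helicases, took 3 genes. AT5G38600 (chr5:15456520-15460767) was in all 6 lists. AT4G14342 (chr4:8253536-8255604), which encodes a subunit of splicing factor 3b, the part of the U2 snRNP that binds the branch point, was in 4 lists, those of memory plants 1 and 2 against both controls, and in neither list of plant 3. *RS40* (chr4:13024498-13027484), an SR protein, was in both lists of memory plant 1 and in 0 of the other 4. The 3 genes shared memory plant 1 against both controls, and their median was 4 lists per gene, against 2 over all listed genes.

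The 3 ribonucleoprotein genes all encode Sm proteins. *SMD1A* was listed for memory plants 1 and 2 against C2 and for plant 1 against C3. *SNRNP-G* was listed for memory plants 1 and 3 against C2 and for plant 1 against C3. *SMD3A* was in 1 list, that of memory plant 1 against C2. So memory plant 1 against C2 was the single list that held all 3 Sm genes, and none of them was in a list of plants 2 or 3 against C3. The first is the longest list, with 61.8% of all listed genes. The lists of plants 2 and 3 against C3 are the shortest, with 40.5% and 37.4%. AT4G02840, a close relative of *SMD1A* with 69.8% identity over the coding sequence, was itself in 4 lists but has no deposited description. AT1G20580, the relative of *SMD3A* with 81.8% identity, was in 0 lists.

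Helicases unwind RNA or strip proteins from it, and the 7 helicase genes had the fewest lists per gene of any role, with a median of 1. AT3G26560, described as the pre-mRNA-splicing helicase DEAH5 and related to the yeast factor Prp22 that releases the spliced RNA, was in 3 lists: memory plant 3 against both controls and plant 2 against C3. AT5G14610, described as DEAD-box helicase 46, was in both lists of memory plant 1. The other 5 were in 1 list each, all of them against C2. *HEN2*, the helicase that feeds RNA of the nucleoplasm to the exosome, and *RH47*, a mitochondrial DEAD-box helicase, were listed for memory plant 1, *SDE3*, which acts in RNA silencing, and *RH52* for plant 2, and AT1G48650 for plant 3. None of these 7 genes was listed for all 3 memory plants. This holds only for helicases named as such in the deposited descriptions. RefSeq product names gave the terms also to *RH3* and *RECG*, in 5 lists each and so listed for all 3 plants. They further gave them to *UPF1*, in 2 lists, and *RH5*, in 1.

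The role of polyadenylation and poly(A) binding took 7 genes. *PAB3* (chr1:8055325-8059060), a poly(A)-binding protein known mainly from reproductive organs, and *RBP47C'* (chr1:17432433-17435124), of a family of nuclear RNA-binding proteins with affinity for poly(A), were in all 6 lists. *PAB4* (chr2:9942915-9946347), a broadly expressed poly(A)-binding protein, was in all 3 lists against C2 and, against C3, only in that of memory plant 1. CID proteins carry a short motif by which they bind poly(A)-binding proteins, and *CID8* was in both lists of memory plant 1 and *CID5* in both lists of plant 2. AT3G13480, described as a nuclear polyadenylated RNA-binding protein, was in both lists of memory plant 3. *PCFS4*, a polyadenylation factor that promotes flowering, was in 1 list, memory plant 1 against C3. Between them, the 3 genes of both lists of a single plant covered all 3 memory plants.

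Families of these genes were looked up after the values were seen, to find how many relatives the lists left out. Each family was picked because it holds a listed gene. Only 9.47% of all protein-coding genes were in at least 1 list, so unlisted relatives are no result about a family. Of the 8 *PAB* genes, 2 were listed, and *PAB1*, *PAB2*, *PAB5*, *PAB6*, *PAB7* and *PAB8* were in 0 lists. Of the 12 *CID* genes 3 were listed, *CID8*, *CID5* and *CID1*, which was in 5 lists, all but that of memory plant 3 against C3, and whose deposited description lacks the terms. Of the 4 *RBP47* genes only *RBP47C'* was listed. Its neighbour *RBP47C* is 93.4% identical over the coding sequence, and 506 of the 6662 stretches of 31 bases (31-mers) in *RBP47C'* and its flanks also occur in *RBP47C* and its flanks. The part of this overlap in the listing was not tested. *PAB3* and *PAB4* were 57.7% identical and shared 0 such stretches.

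Ribonucleases also numbered 7. *XRN2* (chr5:17007366-17014846) was in all 6 lists. *XRN3* (chr1:28408134-28415118), a nuclear exoribonuclease that trims RNA left after transcription ends, was in 4 lists, with all 3 memory plants against C3 and only plant 1 against C2. *XRN4*, the third family member, which degrades messenger RNA in the cytoplasm, was in 0 lists. *XRN2* and *XRN3* were 64.7% identical and shared 9 of 11451 31-mers. AT4G13885 (chr4:8028911-8030754) was in all 6 lists. *RNC1*, which in maize acts in the splicing of chloroplast introns, was in the lists of memory plants 2 and 3 against C2. The last 3 were in 1 list each: *RTL2*, a ribonuclease III-like enzyme that cuts double-stranded RNA, for memory plant 2 against C3, AT4G17100, an XendoU-type endoribonuclease, for plant 3 against C3, and AT5G52115, another ribonuclease H superfamily gene, for plant 1 against C2.

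The 11 genes described only as RNA-binding made up the largest role. AT1G73490 (chr1:27633183-27634990) was in all 6 lists. *RBG2*, a glycine-rich RNA-binding protein of mitochondria, was in both lists of memory plant 1 and in that of plant 2 against C3. AT2G03640, *RZ1C* and *S-RBP11* were in both lists of memory plant 1 and in 0 others. *RZ1C* is known to bind SR proteins, and *S-RBP11* is a chloroplast protein. Another 5 were in 1 list each: AT2G14160 and AT3G21100 for memory plant 3 against C2, AT2G37510 for plant 2 against C3, AT3G23370 for plant 1 against C3 and AT3G63450 for plant 1 against C2. In this role 6 of 11 genes were listed for memory plant 1 alone, the plant with the longest list against each control. Over all roles together the share listed for plant 1 alone was 36.8%, and over all listed genes it was 22%. The difference between roles was not tested.

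Over all roles, lists per gene ran from 1 to 6 with a mean of 2.5, against 2.86 over all 2600 listed genes, and the median was 2 in both. A single list held 15 genes, or 39.5%, against 31.3% of all listed genes. In 2 lists were 10 genes, in 3 lists 4, in 4 lists 3 and in 5 lists 0. The 6 genes of all 6 lists were 15.8%, close to the 16.4% among all listed genes.

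**Figure D2:**
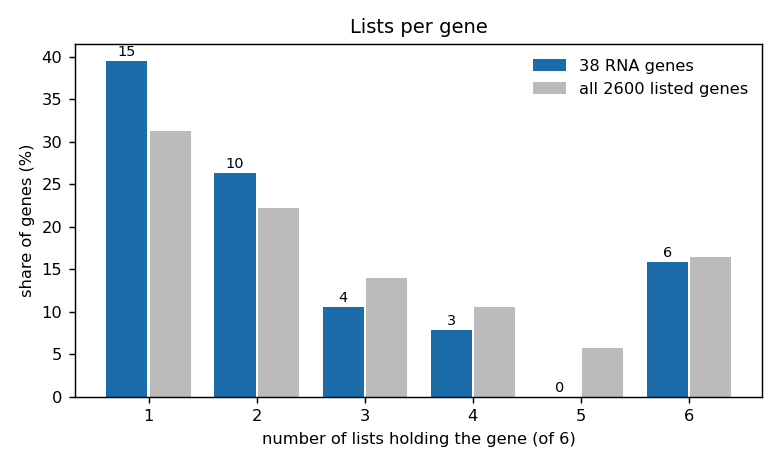
Share of genes (%) by the number of lists that hold them, for the 38 genes (blue, counts above the bars) and for all 2600 listed genes (grey). The blue bars exceed the grey ones at 1 and 2 lists, lie below them at 3 to 5 lists, and nearly match them at 6 lists (15.8% and 16.4%).

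List by list, memory plant 1 held the most of the 38 genes against either control. Against C2, plants 1, 2 and 3 had 24, 13 and 14 genes, or 63.2%, 34.2% and 36.8% of the 38. Against C3 they held 21, 13 and 10, or 55.3%, 34.2% and 26.3%. The lists of plant 1 are also the longest for each control, at 61.8% of all listed genes against C2 and 50.2% against C3. For plants 2 and 3 the shares of all listed genes were 49.8% and 46.7% against C2, and 40.5% and 37.4% against C3. In these 4 lists the 38 genes, as chosen by their deposited descriptions, had the lower share, and in both lists of plant 1 the higher one. The same terms searched in RefSeq product names did not give this split. Of those 560 genes, plant 1 against C2 held 5.54%, below the 5.86% of all protein-coding genes, and against C3 5.36%, above 4.76%. Plants 2 and 3 held 4.29% and 4.64% against C2, beside 4.72% and 4.42%. Against C3 they held 3.93% and 3.75%, above 3.84% and 3.55%.

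**Figure D3:**
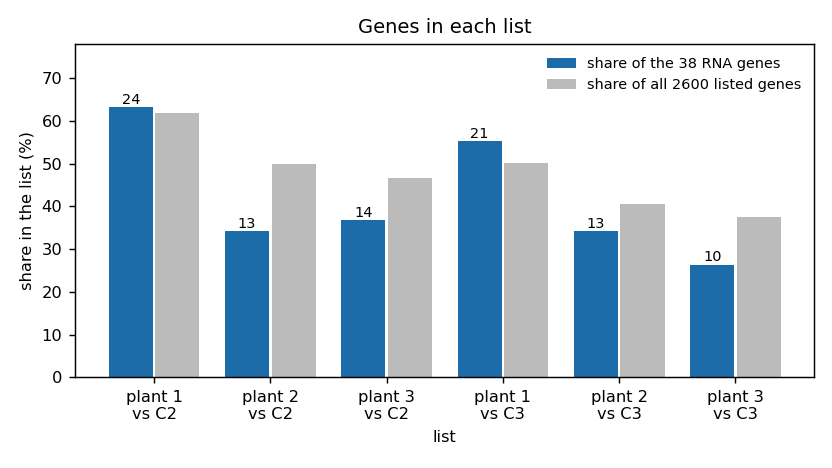
Share of the 38 genes (blue, counts above the bars) and of all 2600 listed genes (grey) that each of the 6 lists holds, in percent. The blue bars are above the grey ones for memory plant 1 against both controls and below them for plants 2 and 3.

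The genes were mostly listed for a single plant. A plant was counted where its list against either control held the gene. By this count 24 of 38 genes, or 63.2%, were listed for only 1 plant, against 41.3% of all listed genes, and 8 genes, or 21.1%, for all 3 plants, against 37.2%. Those 8 were the 6 genes of all 6 lists, *XRN3* and *PAB4*. Memory plant 1 alone accounted for 14 genes (36.8%, against 22% of all listed genes), plant 2 alone for 5 (13.2%, against 11.4%) and plant 3 alone for 5 (13.2%, against 7.88%). With plant 1 left out, 24 of the 38 genes would still be in a list, and with plant 2 or plant 3 left out, 33.

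A gene in both lists of 1 plant and in no other list was found against each wild type library in turn, though with the same memory library. Memory plant 1 had 7 such genes, among them *CID8*, AT2G03640, *RS40*, *RZ1C*, *S-RBP11* and AT5G14610, which is 18.4% of the 38 against 6.96% of all listed genes. Plant 2 had 1, *CID5* (2.63%, against 1.62% of all listed genes), and plant 3 had 1, AT3G13480 (2.63%, against 1.42%). These 7 genes lie on 4 chromosomes, and 3 of them have another listed gene within 4 kb. They rest on 1 memory library, so a property of that plant and one of its library cannot be told apart.

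Most of the 38 genes were listed against both wild type controls. Against both controls stood 22 genes, or 57.9%, with 49.7% among all listed genes. Only against C2 were 11 genes (28.9%, against 31.2%), and only against C3 were 5 genes (13.2%, against 19.1%). None of the 38 genes was in all 3 lists of 1 control and in 0 of the other. That pattern is rare among all listed genes too, with 157 (6.04%) for C2 and 48 (1.85%) for C3. At such shares few of 38 genes would have it. The nearest were *PAB4*, with 3 lists against C2 and 1 against C3, and *XRN3*, with 1 against C2 and 3 against C3. All 3 lists of C2 held 7 of the 38 genes (18.4%, against 30.7% of all listed genes), and all 3 lists of C3 also held 7 (18.4%, against 22.2%).

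What surrounds a gene bears on how a peak is assigned to it. A window of 2 kb on both sides can reach the next gene, and 1 peak may list both. Another listed gene lay within 4 kb of 14 of the 38 genes, or 36.8%, close to the 33.6% of all listed genes. In 2 cases (5.26%, against 3.27% of all listed genes) that neighbour was in exactly the same lists. Among the genes of all 6 lists, *PAB3* had AT1G22750 at 2394 bp, which was in 5 lists, *RBP47C'* had AT1G47495 at 2619 bp, in 1 list, and *XRN2* had *HVA22I* at 0 bp, in 1 list. AT5G38600, AT1G73490 and AT4G13885 had no listed neighbour within that distance. *PAB4*, in 4 lists, lay 2246 bp from *FPP7*, which was in all 6.

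The 38 genes were longer than listed genes at large and had less space around them. Their median length was 2763 bp (range, 549 to 7481), against 2253 bp for all listed and 2062 bp for unlisted genes. Intergenic space, added over both sides up to the next protein-coding gene, had a median of 2060 bp, against 2679 bp for all listed and 1769 bp for unlisted genes. Of the 38, 12 touched or overlapped a neighbour, which was not counted over all genes. In the 6 genes of all 6 lists the median space was 2223 bp, below the 3624 bp of the 426 listed genes in all 6 lists. By chromosome the genes numbered 10, 6, 8, 7 and 7 from chromosome 1 to 5. These were 26.3%, 15.8%, 21.1%, 18.4% and 18.4%, against 24.3%, 17.9%, 18.8%, 17.1% and 21.8% of all listed genes.

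Repeated sequence differed within the group. The share of 31-mers, over the gene and its flanks of 2 kb, that occur more than once in the genome had a median of 0.384% over the 38 genes, near the 0.378% of unlisted genes and below the 1.28% of all listed genes. In the genes of all 6 lists it ran from 0.0779% in *PAB3*, 0.227% in *XRN2* and 3.25% in AT5G38600 to 8.90% in AT1G73490, 11.7% in *RBP47C'* and 13.8% in AT4G13885, with a median of 6.07%. Over all listed genes in all 6 lists the median was likewise higher than over all listed genes, at 3.08%. Genes in 2 to 4 lists had a median of 0.240% and genes in 1 list 0.345%. The highest value, 27.9%, was that of AT2G14160, in 1 list. The part of repeats in the listings was not tested.

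**Figure D4:**
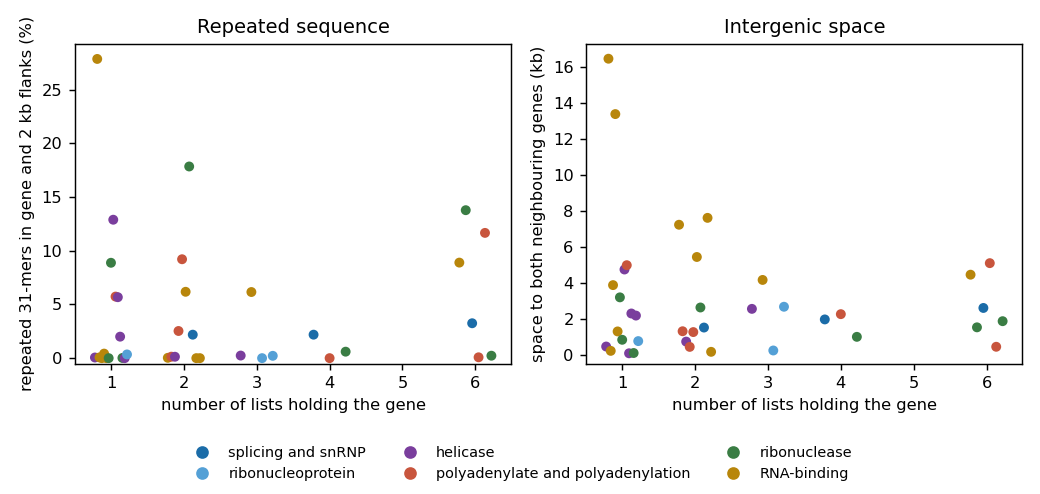
Each of the 38 genes as a point, coloured by role, by the number of lists that hold it (horizontal; points spread sideways so as not to overlap) against its share of repeated 31-mers in percent (left) and the space to both neighbouring genes in kb (right). At 6 lists the points fall into 3 genes under 5% and 3 genes between 8.90% and 13.8% repeated 31-mers, while space shows no order with the number of lists.

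The 250 bases before each gene were searched on both strands for 6 strings known from plant promoters, and the share of all 27443 promoters of this length that hold each was counted. TATAAA, of the TATA box, stood before 17 of the 38 genes (44.7%) and before 47.3% of all genes. AAACCCTA, the telo box found before many genes of the translation machinery, stood before 3 (7.89%, against 4.49%), which were *RTL2*, AT3G21100 and AT4G13885. CACGTG, the G-box, stood before *SDE3* and *PAB4* (5.26%, against 6.49%), and AAATATCT, the evening element of clock-controlled genes, before 0 (against 4.79%). The site II element is known before genes of ribosomal and cell-cycle proteins. Its form TGGGCC stood before 12 genes (31.6%, against 13.7%) and the form TGGGCT before 11 (28.9%, against 12.3%). Both forms share their first 5 letters and do not overlap on 1 strand, and a gene that holds TGGGCCCA counts once.

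Both site II forms were then pooled, a step chosen after these counts were seen. Either form stood before 16 of the 38 genes (42.1%), against 23.5% of all listed and 19.2% of all protein-coding genes. The same terms searched in RefSeq product names gave 560 genes, and either form stood before 32.8% of the 503 that were in 0 lists and before 43.9% of the 57 that were listed. So RNA-processing genes outside the lists also held these letters more often than genes at large. Of the 6 genes in all 6 lists, only AT1G73490 held a site II string, and *PAB3*, *RBP47C'*, *XRN2*, AT5G38600 and AT4G13885 did not, a share of 16.7% against 21.4% of all listed genes in all 6 lists. Of the 7 genes in both lists of memory plant 1 alone, 5 did (among them *RS40*, *RZ1C*, *S-RBP11* and AT5G14610), while among all 181 listed genes with that pattern the share was 19.3%. A match is a string of letters and no measure of binding, and no test was made of these counts.

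**Figure D5:**
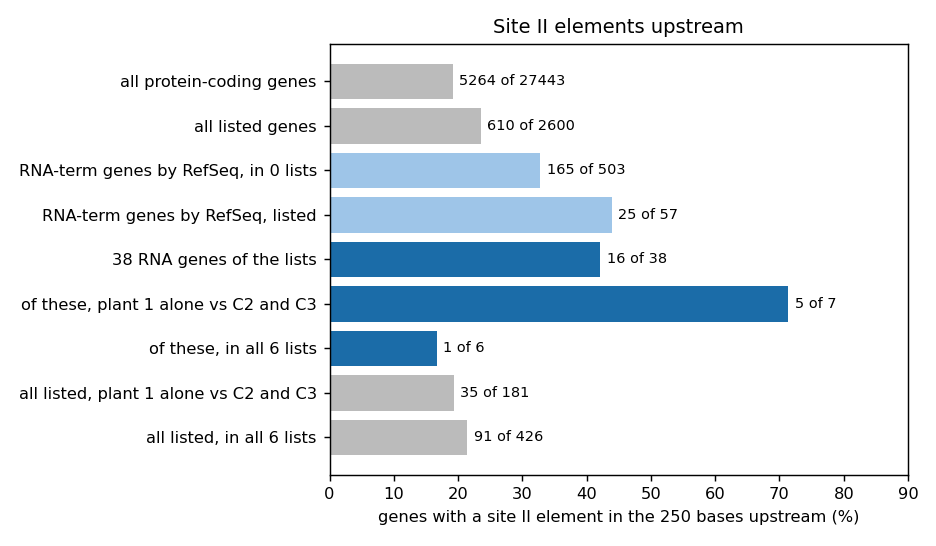
Share of genes (%) with TGGGCC or TGGGCT on either strand in the 250 bases upstream of the start, with the count of genes beside each bar, for all and listed genes (grey), genes with the terms in their RefSeq product (light blue) and the 38 genes with their subsets (dark blue). The 38 genes reach 42.1%, between 32.8% and 43.9% for the RefSeq sets, and the subsets of 7 and 6 genes hold 5 and 1.

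Whether RNA-processing genes were listed more often than others cannot be read from descriptions, which the lists give only for genes they hold. The RefSeq products, which cover listed and unlisted genes alike, put 57 of 560 such genes in at least 1 list, or 10.2%, near the 9.47% of all protein-coding genes. In all 6 lists were 6 of them (1.07%, against 1.55%). For memory plants 1, 2 and 3 the shares were 5.54%, 4.29% and 4.64% against C2, and 5.36%, 3.93% and 3.75% against C3, each within 1 percentage point of the whole list's share. Both annotations gave the terms to 26 listed genes, the deposited descriptions alone to 12, among them *PAB3* and *PAB4*, and the RefSeq products alone to 31, among them *UBP1C*, an RNA-binding protein of stress granules, in all 6 lists.

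The pathway was also taken gene by gene from a list of 127 Arabidopsis genes of RNA processing, written from general knowledge, of which 110 matched the RefSeq table by both locus and symbol. Of these, 12 (10.9%) were in at least 1 list, near the 9.47% of all protein-coding genes, and 7 of the 12 belong to the 38 genes: *PAB3*, *PAB4*, *XRN2*, *XRN3*, *HEN2*, *PCFS4* and *RS40*. SR proteins had 1 of 19 genes listed (5.26%), *RS40*. The spliceosome had 2 of 36 (5.56%): *PTB3*, a polypyrimidine tract-binding regulator of splicing, in all 6 lists, and *SAD1*, an Sm-like protein, in both lists of memory plant 1. This written list left out *SMD1A*, *SNRNP-G*, *SMD3A* and AT4G14342, so its share is not that of all splicing genes. By RefSeq product, 7 of 63 genes with splicing (11.1%) and 6 of 48 with ribonucleoprotein (12.5%) were listed. With snRNP it was 2 of 7 (28.6%), and with spliceosom 1 of 5 (20%). Of 3′ end formation and poly(A) binding, 4 of 29 (13.8%) were listed, *PAB3*, *PAB4*, *PCFS4* and *CLPS3*, a cleavage factor in 2 lists.

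The exosome and RNA decay had 5 of 26 genes listed (19.2%, against 9.47% of all protein-coding genes). Besides *XRN2*, *XRN3* and *HEN2* these were *CAF1a*, a deadenylase that shortens poly(A) tails, in both lists of memory plant 1, and *UPF1*, the helicase of nonsense-mediated decay, in the lists of plants 2 and 3 against C2. The exosome genes *RRP4*, *RRP41*, *CER7*, *RRP45A* and *RRP44A* and the helicase gene *MTR4* were in 0 lists. Counting all 127 loci, a choice made after the values were seen, gave 15 listed (11.8%) and 7 of 35 (20%) for decay. The 3 added genes, whose symbols did not match, were AT1G76630, in all 3 lists against C2 and 0 against C3, AT5G60940, in all 3 lists against C3 and 0 against C2, and AT5G35910, in that of memory plant 3 against C3. The 12 genes fell to 7 with memory plant 1 left out. By list, the share of the 110 genes was 9.09%, 4.55% and 5.45% for plants 1, 2 and 3 against C2, and 8.18%, 3.64% and 3.64% against C3. The shares of plant 1 were above those of its whole lists, 5.86% and 4.76%, and the other 4 were within about 1 percentage point of theirs.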

How the data were processed

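FAIRE-seq of rosettes, with 3 libraries from the *msh1* memory line and 2 from wild type, was used through 6 gene lists. Per the labels, the authors used the wild type libraries as controls. The submitters' processing notes name Trim Galore 0.4.1, cutadapt 1.9.1, Bowtie2 and the build TAIR10. The peak caller, its threshold and the read depth are not given in the sources used here. The deposited lists hold a locus identifier, a symbol and a description per gene, with no other value, and genes were linked to peaks by the authors over the gene and 2 kb on each side. Replicates were not pooled in the lists.

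Locus identifiers were matched to RefSeq TAIR10.1, whose coordinates are printed. Gene spacing, repeated 31-mers, upstream sequence and neighbours within 4 kb were computed from it with Python 3.11.15, pandas 2.3.3, numpy 2.4.6 and Biopython 1.88. Only helper functions, such as those for the choice of genes, roles and distances, were checked, on made-up rows with known answers. Counts were compared with all listed or all 27444 nuclear protein-coding genes, with no test. Described in full were genes in all 6 lists, in both lists of a single memory plant, in the 3 lists of a single control, and pathway genes with a listing; the others are named by role, except 1 gene that is counted but not reported here. The alternatives were other annotations, single controls, each memory plant left out and neighbouring genes left out. The members and lists were chosen with earlier results of these data known.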

Additional observations from a re-analysis of the deposited data

How the results depend on the processing

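Of 28 alternative settings over 4 counts, 23 stayed within 1.5 times the reported count. Genes in at least 1 list numbered 38, and 24 with genes within 4 kb of another listed gene left out. Leaving out each memory plant in turn gave 24 to 33, the lowest without plant 1. Genes in all 6 lists numbered 6, and 3 with those near another listed gene left out, or 3 with those over 5% repeated 31-mers left out, an alternative chosen after seeing the data. Leaving out a plant gave 6 to 7. Pathway genes in at least 1 list numbered 12, and 7 to 12 with a plant left out, the lowest without plant 1. In each case fewer genes or lists entered the count. With RefSeq products in place of the deposited descriptions the counts were 57 and 6. No paired analysis was possible because these counts come from no test. Each list has no replicate of its own contrast, read depth is unknown, and a missing entry cannot be told from a peak just under the threshold.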
